A study of Mus musculus with 10 samples.

Results

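The genomic regions in and around 10 cadherin genes (Cdh1, Cdh2, Cdh4, Cdh5, Cdh6, Cdh8, Cdh10, Cdh11, Cdh13 and Cdh20) were examined in ATAC-seq peak lists from cultures of adult mouse subependymal zone (SEZ) neural stem cells. ATAC-seq uses a transposase to insert sequencing adapters into open DNA, so that a peak marks accessible chromatin. Peaks of the 10 lists that overlapped by at least 1 bp were merged into one region, and a region belonged to a cadherin gene when its summit lay in the gene body or within 50 kb of it. This gave 326 cadherin regions of the 137454 regions of the whole series. Of these, 213 were seen in 2 libraries or more, and the 150 seen in 5 or more were tested, out of 70627 tested regions in all.

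Wild-type (WT) and p27KO cells were each taken in proliferation (PRO) and at the onset of differentiation (DIFF). The cultures came from mice aged 10 weeks, and 50000 cells went into each library. PRO cells were neurospheres, fed with EGF at 20 ng/ml and FGF at 10 ng/ml; the labels give a culture time of 3 days, and the study's own text elsewhere gives a longer one. DIFF cells had spent 2 days on Matrigel and then 24 h without mitogens in 2% serum. The p27KO mice carry a constitutive null allele of Cdkn1b, which encodes the cyclin-dependent kinase inhibitor p27, on a C57BL/6J background, so the loss was not limited to the transition studied. Each condition had 3 WT and 2 p27KO libraries; the study's methods call the replicates biological and count independent cultures or animals, but which libraries came from separate mice is not stated, so the p-values measure the spread between these libraries.

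Cadherins are cell surface proteins that join cells through calcium-dependent contacts between their extracellular domains, and most of them are tied to the actin cytoskeleton by catenins. The type I members Cdh1 (E-cadherin), Cdh2 (N-cadherin) and Cdh4 (R-cadherin) form strong contacts between like cells. Cdh5, Cdh6, Cdh8, Cdh10, Cdh11 and Cdh20 are type II members, which often mark particular neuron groups or tissues, and Cdh13 (T-cadherin) is held in the membrane by a lipid anchor and has no cytoplasmic tail. In the SEZ, N-cadherin is known for holding neural stem cells in their niche.

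The number of reads per library was not used here, and the length of a list stood in for depth. The lists held 57534 to 91801 peaks. The library WT DIFF 3 stood apart from its group, with 88738 peaks against 61783 and 57534 in the other WT DIFF libraries, so a missing peak means only that none was called in that list. All 8 neural stem and progenitor markers (Sox2, Nes, Fabp7, Slc1a3, Sox9, Olig2, Egfr and Pax6) had a peak within 3 kb of a start site in every library. Of other cell types, 1 to 3 of 6 endothelial, 2 to 3 of 5 microglial, 1 to 4 of 4 mesenchymal, 0 to 1 of 4 epithelial, 3 to 5 of 5 neuronal and 2 of 2 ependymal markers had one; Tek, Tie1, Emcn, Cx3cr1, Ptprc, Krt18 and Cldn7 had none in any library. Kdr, Csf1r, Aif1 and Col1a1 had such a peak in all 10 libraries, Tmem119 in 9 and Pecam1 in 8. WT DIFF 3 was the only library with a peak at all 4 mesenchymal markers. The text descriptions of the p27KO libraries name WT, against their titles, but a peak at Cdkn1b itself was called in each of the 6 WT libraries and in 0 of the 4 p27KO libraries. The Y-linked genes Ddx3y, Eif2s3y and Uty showed the same split (all 6 WT libraries and none of the p27KO ones), so a difference between genotypes cannot be told apart from one that goes with the Y chromosome.

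The cadherin windows held a similar share of every list. Together they had 120 to 208 peaks per library, or 20.1 to 22.7 of every 10000 peaks, with group means ± SD in WT of 20.97 ± 0.106 at PRO and 21.65 ± 0.688 at DIFF (n = 3 each), and in p27KO of 22.18 ± 0.679 at PRO and 21.33 ± 1.70 at DIFF (n = 2 each). Cdh4 (23 to 46 peaks per library), Cdh13 (24 to 40) and Cdh20 (18 to 38) held most of them, while Cdh8 had 4 to 10. The number did not simply follow gene length, as Cdh8 spans 392.0 kb and Cdh20 227.0 kb. For Cdh6, the number per 10000 peaks was 1.11 ± 0.212 in WT PRO and 1.44 ± 0.0408 in WT DIFF, and 1.03 ± 0.0657 in p27KO PRO and 1.70 ± 0.105 in p27KO DIFF (SD, n = 3 for WT and 2 for p27KO). For Cdh2 it was 1.83 ± 0.253 in WT PRO and 2.59 ± 0.159 in WT DIFF, and 2.10 ± 0.268 in p27KO PRO and 2.49 ± 0.241 in p27KO DIFF. The groups overlapped for the other genes in at least one genotype, and these densities were not tested.

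**Figure D1:**
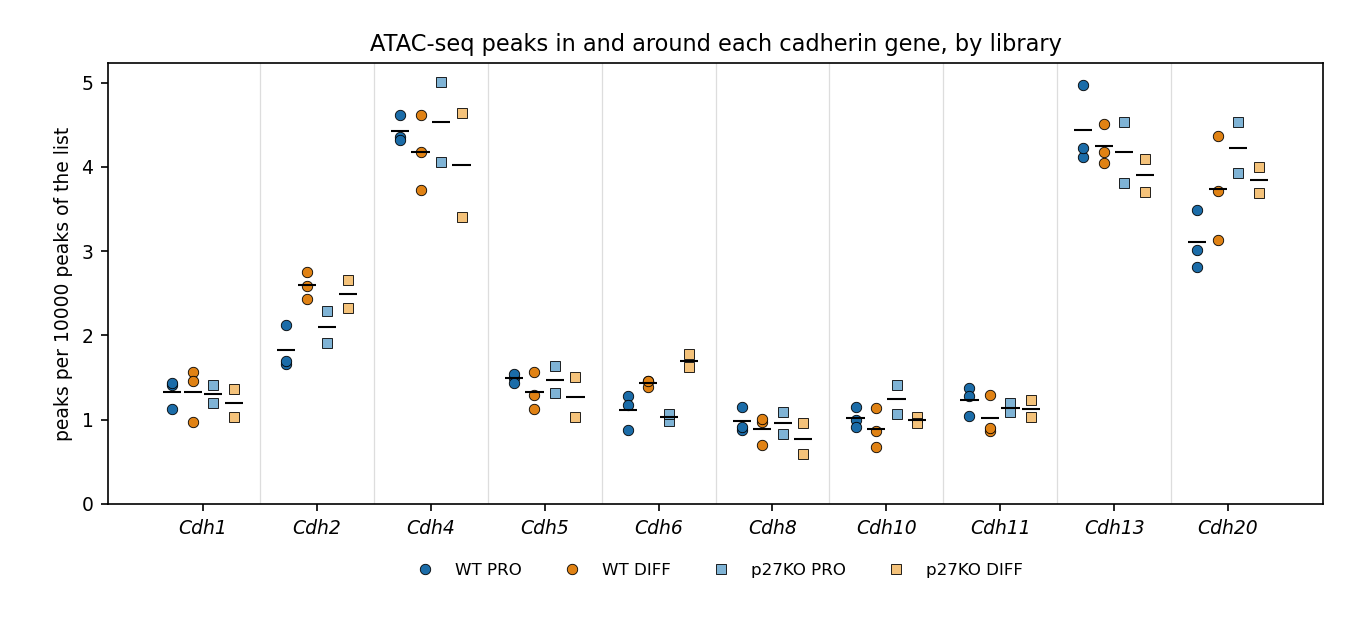
Peaks per 10000 peaks of the list (vertical axis) for each cadherin gene with its 50 kb flanks (horizontal axis); each point is a library, circles are WT, squares are p27KO, and bars are group means. Cdh4, Cdh13 and Cdh20 lie highest, and Cdh2 and Cdh6 lie higher at DIFF than at PRO in the group means of both genotypes.

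The first comparison asked which cadherin regions changed between PRO and DIFF, and whether this differed without p27. In each library the tested regions were ranked by fold enrichment, with regions that had no peak tied at the bottom, and the ranks were turned into normal scores, so that a change of 1 is 1 standard deviation of the ranking. At DIFF in WT, 22 of the 150 cadherin regions were lower (14.67%) and 19 were higher (12.67%), against a background of 10.1% lower and 9.15% higher among all tested regions (limma, Benjamini-Hochberg adjusted p under 0.05). At DIFF in p27KO, 12 were lower (8.0%) and 11 were higher (7.333%), against 6.48% and 5.83% of all tested regions. With 2 p27KO libraries per condition against 3 in WT, standard errors were larger in p27KO. The counts of the genotypes are therefore not compared with each other. The median change of the 150 regions was -0.01 in both genotypes, while that of all tested regions was 0.034 in WT and 0.042 in p27KO. Without WT DIFF 3, 30 of 134 cadherin regions were called in WT (22.39%, against 15.53% of all regions) and 16 of 134 in p27KO (11.94%, against 11.08%). The WT count was lower still without WT PRO 3 (10 lower and 13 higher of 137), WT DIFF 2 (14 and 10 of 141), WT DIFF 1 (12 and 13 of 142) or WT PRO 2 (14 and 13 of 135), with 16.79% to 20.0% called against 12.2% to 13.04% of all regions. In p27KO the calls fell to 1 lower and 8 higher of 134 without p27KO PRO 2, to 3 and 7 of 137 without p27KO PRO 1, to 4 and 5 of 141 without p27KO DIFF 1 and to 6 and 4 of 139 without p27KO DIFF 2, or 6.383% to 7.299% against 4.402% to 6.066%. The balance of lower and higher calls thus depended on single libraries in both genotypes.

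Some of these calls followed from how regions were kept. A region with peaks in PRO libraries only or in DIFF libraries only reached the minimum of 5 libraries through the condition in which it was open. Of the cadherin regions, 9 were of the first kind and 6 of the second, and all 6 of the second kind, like all 952 in the series, were called higher in WT. Among the 135 cadherin regions with peaks in both conditions, 18 were lower and 13 were higher in WT (22.96%, against 16.34% of all such regions), and 8 were lower and 5 were higher in p27KO (9.63%, against 9.841%). Some of these 135 also reached the minimum mainly through 1 condition. When only regions with a peak in all 10 libraries were tested, 12 of 74 cadherin regions were called in WT (16.22%, against 12.89%) and 7 in p27KO (9.459%, against 6.334%). In p27KO, the share of cadherin regions called lay within a few percentage points of the background under each of these choices.

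The direction of change was shared between genotypes. Of the 41 regions called in WT, 40 had a change of the same sign in p27KO (97.56%, against 97.22% of all regions called in WT), and the exception was an intronic Cdh1 region, 34.0 kb from the 5′ end of the gene, at 0.74 in WT and -0.07 in p27KO. Both genotypes called 22 regions, all in the same direction; these were 53.66% of the WT calls and 95.65% of the p27KO calls, and over all regions the shares were 51.2% and 79.9%. For 10 of the 22 the shared direction was fixed in advance, because they had a peak in all libraries of one condition and in none of the other. Among regions with peaks in both conditions, 30 of 31 WT calls changed in that same direction in p27KO (96.77%, against 96.56% of all such regions). Of these regions, 12 were called in both genotypes, which was 38.71% of the WT calls and 92.31% of the 13 p27KO calls (over all such regions, 45.19% and 75.01%). The genotypes used separate libraries, but 1 estimate of the spread. No cadherin region passed the test of the difference between genotypes, where 5 had an unadjusted p under 0.05, and the background was 0.0% called and 3.908% at an unadjusted p under 0.05.

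**Figure D2:**
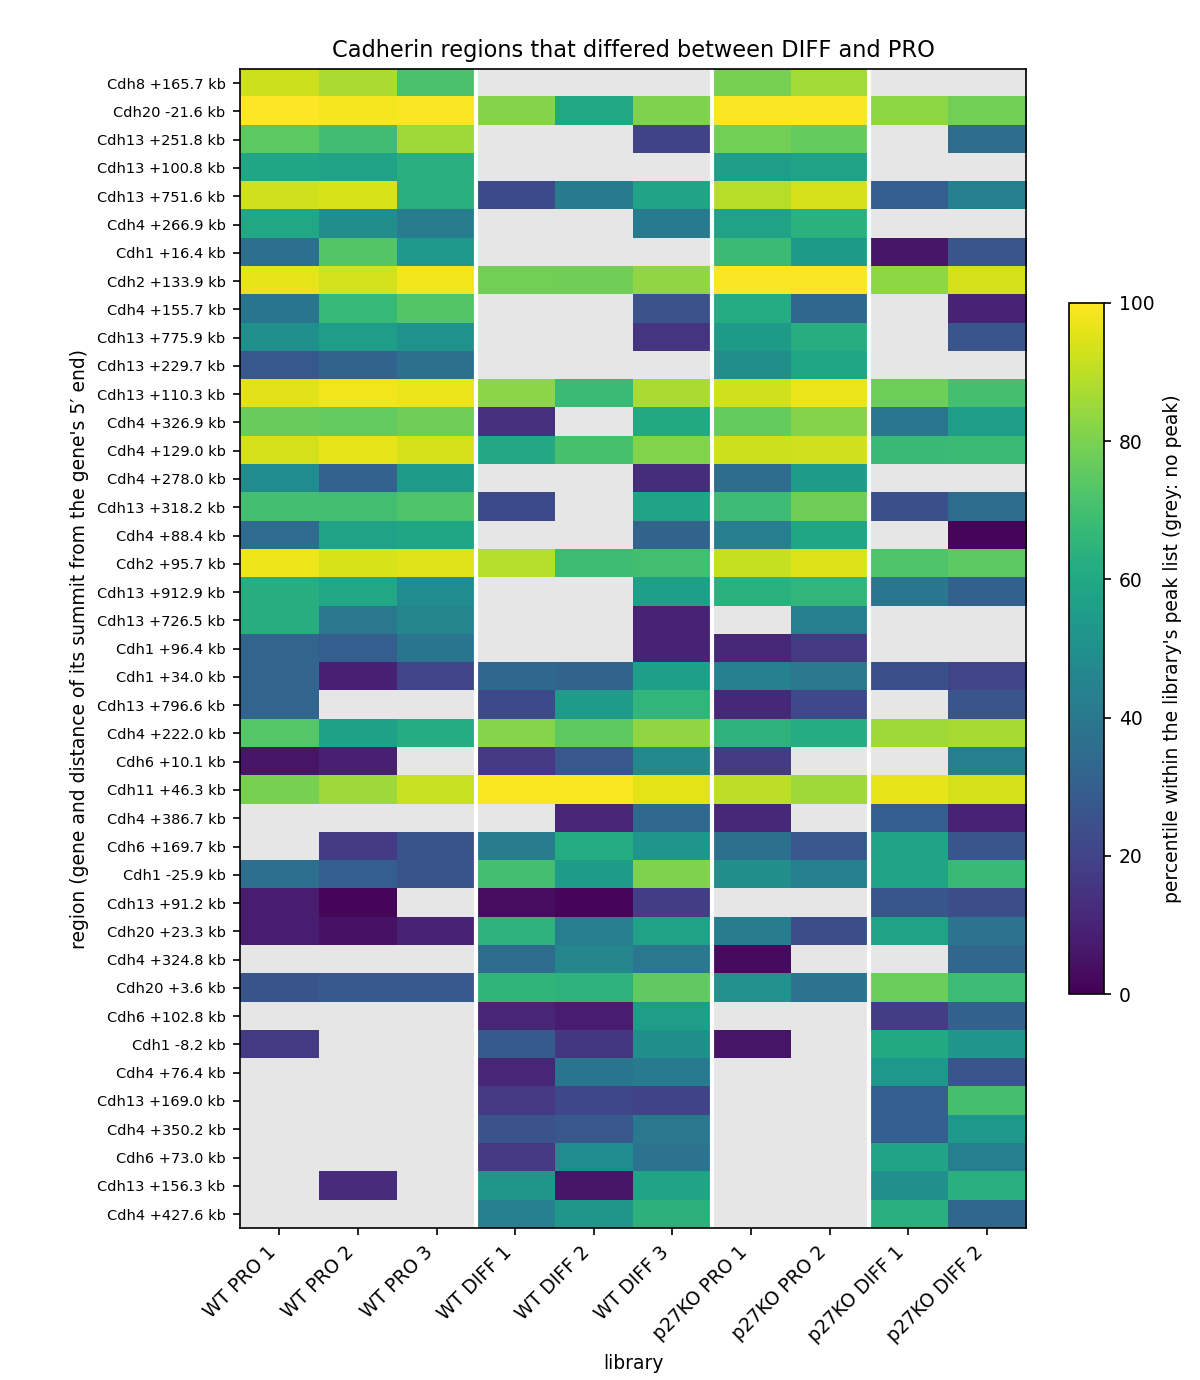
Percentile of each library's peak (colour, 0 to 100; grey means no peak) at 41 of the 42 cadherin regions called in WT or p27KO, 1 row per region with its distance from the 5′ end of the gene, 1 column per library. Rows are ordered by the mean change, so regions open mainly in the 5 PRO libraries are at the top and regions open mainly in the 5 DIFF libraries at the bottom.

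**Figure D3:**
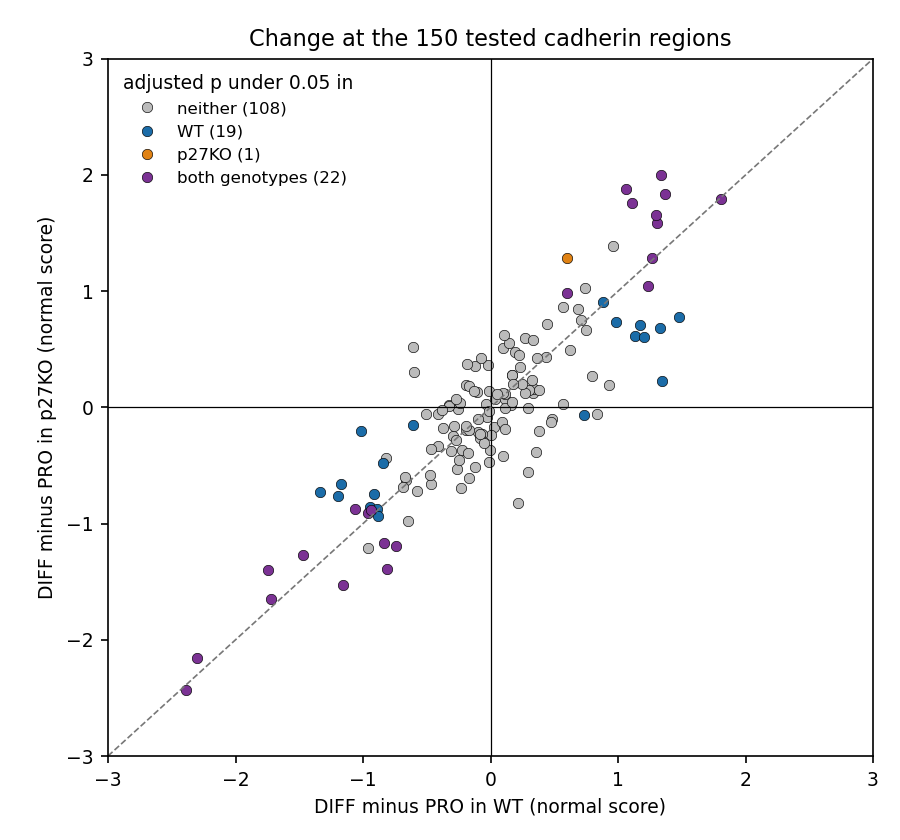
Change from PRO to DIFF in WT (horizontal axis) and in p27KO (vertical axis), in normal scores, for the 150 tested cadherin regions; colours show in which genotype a region was called, and the dashed line marks equal changes. The 22 regions called in both lie in the lower left and upper right parts of the plot.

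By annotation, of the 150 tested cadherin regions, 104 were intronic, 29 intergenic, 16 within 3 kb of a start site and 1 exonic, and 108 (72.0%) lay in the body of the gene itself; of all tested regions, 29.79% were intronic and 28.86% within 3 kb of a start site. None of the 16 promoter regions was called in either genotype. The start site could be that of any protein-coding gene, so not all 16 belong to a cadherin gene. An example is a region in the Cdh1 window, 79.8 kb from the 5′ end and outside the gene. Of all promoter regions 8.669% were called in WT and 4.896% in p27KO, so a count of 0 among 16 is near the background. In WT, 36 of the 104 intronic regions were called (34.62%, against 25.23% of all intronic regions). Of the 29 intergenic regions 5 were called in WT (17.24%, against 22.31%). In p27KO, 20 intronic regions (19.23%, against 16.77%) and 3 intergenic regions (10.34%, against 14.26%) were called.

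Among the type I members, Cdh2 (ENSMUSG00000024304, minus strand, 220.4 kb) had 14 tested regions, of which 2 were lower at DIFF in WT and 1 in p27KO. The intronic region chr18:16675192-16675599, 133.9 kb from the 5′ end, stood at percentiles 96.2, 93.3 and 97.8 in WT PRO and 78.8, 78.5 and 83.4 in WT DIFF; a percentile is the share of peaks in the same list with a lower fold enrichment. It stood at 99.4 and 99.2 in p27KO PRO and at 83.0 and 93.6 in p27KO DIFF. PRO and DIFF libraries did not overlap in either genotype, and the score fell by 0.83 ± 0.20 in WT (SE; adjusted p = 0.0145) and by 1.17 ± 0.25 in p27KO (adjusted p = 0.0109). A second intronic region, chr18:16713068-16714259, stood at 97.4, 93.9 and 95.1 in WT PRO and at 88.7, 69.1 and 69.8 in WT DIFF, and fell by 0.91 ± 0.25 (adjusted p = 0.0247). Its values in p27KO were 91.4 and 94.9 at PRO and 72.5 and 74.9 at DIFF (adjusted p = 0.145; ranked by −log10 p-value, the change was -1.07 and adjusted p = 0.024). Without WT PRO 3 the WT call of the first region was lost (change -0.71, adjusted p = 0.062), as was its p27KO call without p27KO PRO 1, p27KO PRO 2 or p27KO DIFF 1 (adjusted p = 0.0654 to 0.107). The WT call of the second was lost without WT PRO 1, WT PRO 3, WT DIFF 2 or WT DIFF 3 (adjusted p = 0.0624 to 0.0933).

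Cdh1 (ENSMUSG00000000303, chr8:106603351-106670246, plus strand), the cadherin of epithelial junctions, had 10 tested regions, with 2 lower and 3 higher at DIFF in WT and 1 higher in p27KO. Its window also holds Cdh3, Gm10073 and Tango6, and 1 of the lower regions, 96.4 kb from the 5′ end, lay beyond the gene in an intron of a neighbouring gene. The intergenic region chr8:106594654-106595256, 8.2 kb upstream of the gene, was higher at DIFF in both genotypes. In WT it had a peak at PRO in 1 library, at percentile 16.9, and at DIFF in all 3, at 28.2, 16.2 and 49.8. In p27KO it had one at PRO in 1 library, at 5.80, and at DIFF in both, at 60.7 and 52.2. The score rose by 1.11 ± 0.21 in WT (adjusted p = 0.00406) and 1.76 ± 0.26 in p27KO (adjusted p = 0.00173); the groups overlapped in WT but not in p27KO. Another upstream region, chr8:106577300-106577710, stood at 36.7, 29.8 and 25.9 in WT PRO and 70.1, 54.7 and 80.6 in WT DIFF (change 1.17 ± 0.17, adjusted p = 0.000909), and at 49.6 and 43.1 in p27KO PRO and 58.3 and 67.2 in p27KO DIFF (change 0.71 ± 0.21, adjusted p = 0.0502). That p27KO value lay at the threshold. It passed with ranking by −log10 p-value, within the strongest 57000 peaks of each list, with a −log10 q of at least 2, and without WT DIFF 2 or WT DIFF 3 (adjusted p = 0.0181 to 0.0483). The intronic region 16.4 kb into the gene had a peak in all 5 PRO libraries, at 36.7 to 73.2, in no WT DIFF library, and in both p27KO DIFF libraries, at 6.22 and 26.3. It fell by 1.34 ± 0.28 in WT (adjusted p = 0.00645); in p27KO the change was -0.73 ± 0.34 (adjusted p = 0.208), and the difference between genotypes did not pass the test (unadjusted p = 0.19).

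Cdh4 (ENSMUSG00000000305, chr2:179442431-179899373, plus strand), known for its part in retinal and brain development, had 34 tested regions over 456.9 kb, with Taf4 also in its window. In WT 6 were lower and 6 were higher, and in p27KO 2 were lower and 4 were higher; with the 5 regions set aside that had peaks in 1 condition only, there were 6 lower and 3 higher of 29 in WT and 2 lower and 1 higher in p27KO. Lower and higher regions lay among each other along the introns. The region chr2:179869853-179870141 lay 427.6 kb into the gene, in an intron, and had no peak in any of the 5 PRO libraries. At DIFF it stood at 44.0, 52.8 and 64.3 in WT and at 63.5 and 33.8 in p27KO. The score rose by 1.81 ± 0.22 in WT (adjusted p = 0.00028) and 1.79 ± 0.26 in p27KO (adjusted p = 0.0017). The intronic regions at 350.2 kb and 76.4 kb behaved alike, with no peak at PRO and percentiles of 25.4 to 53.5 and 10.8 to 53.2 at DIFF; the p27KO call of the latter (change 1.59, adjusted p = 0.00448) was lost without p27KO PRO 1 (adjusted p = 0.0595) and within the strongest 57000 peaks of each list (change 0.99, adjusted p = 0.0569). All 3 were kept through the DIFF libraries, so their presence there is a description. The sequence at the summit of the first is printed from the + strand of GRCm38 (chr2:179869945-179870144), because it rose most of all cadherin regions in WT; capitals mark matches to the motifs searched, here CAGCTG, an E-box of the kind read by basic helix-loop-helix (bHLH) factors, and TGCCAA, the reverse complement of the NFI motif TTGGCA.
Cdh4 intron, higher at DIFF: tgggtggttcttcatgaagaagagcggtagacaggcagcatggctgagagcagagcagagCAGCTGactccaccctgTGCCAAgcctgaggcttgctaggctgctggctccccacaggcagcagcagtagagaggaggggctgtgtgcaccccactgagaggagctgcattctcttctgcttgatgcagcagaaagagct

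The type II member Cdh5 (ENSMUSG00000031871, chr8:104101625-104144511, plus strand), the cadherin of endothelial junctions, had no called region among 11 in either genotype; 3 had an unadjusted p under 0.05 in WT and 1 in p27KO. Cdh10 (ENSMUSG00000022321, chr15:18818947-19014236, plus strand), found mainly in brain, had none among 7, with 1 at an unadjusted p under 0.05 in each genotype.

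Cdh6 (ENSMUSG00000039385, chr15:13028701-13173675, minus strand), known from kidney and from the developing nervous system, was the only one of the 10 genes in which several regions were called and every one was higher, with 4 of 10 in WT and 2 in p27KO. The intronic region chr15:13100468-13101010, 73.0 kb from the 5′ end, had no peak in the 5 PRO libraries. It stood at 16.6, 48.5 and 38.1 in WT DIFF and at 58.3 and 43.1 in p27KO DIFF, and its score rose by 1.37 ± 0.23 in WT (adjusted p = 0.00216) and 1.84 ± 0.29 in p27KO (adjusted p = 0.00222). A second intronic region, 102.8 kb from the 5′ end, also had no peak at PRO and stood at 10.8, 7.94 and 55.8 in WT DIFF and at 18.3 and 31.1 in p27KO DIFF. Its score rose by 1.27 ± 0.18 in WT (adjusted p = 0.000704) and 1.29 ± 0.22 in p27KO (adjusted p = 0.0035). The p27KO call was lost without p27KO PRO 1 (adjusted p = 0.0543) and within the strongest 57000 peaks of each list (change 0.63, adjusted p = 0.0847). Both owed their place among the tested regions to the DIFF libraries, a kind of region that was always called higher in WT. Of the other 8 Cdh6 regions, which had peaks in both conditions, 2 were called in WT and 0 in p27KO. Of all such regions in the series, 16.34% were called in WT and 9.841% in p27KO. The intergenic region chr15:13002732-13004413 had a peak in 2 of 3 WT PRO libraries, at 17.4 and 25.9, and stood at 42.2, 62.1 and 52.2 in WT DIFF (change 1.20 ± 0.31, adjusted p = 0.0181; without WT PRO 1, WT PRO 2 or WT DIFF 2, adjusted p = 0.0525 to 0.093). In p27KO its groups overlapped, with 37.0 and 27.2 at PRO and 58.3 and 26.3 at DIFF (adjusted p = 0.354). The sequence of the first Cdh6 region (chr15:13100528-13100727, + strand) is shown as the leading one of this gene, with the TEAD motif in the orientation CATTCC, the reverse complement of GGAATG, in capitals.
Cdh6 intron, higher at DIFF: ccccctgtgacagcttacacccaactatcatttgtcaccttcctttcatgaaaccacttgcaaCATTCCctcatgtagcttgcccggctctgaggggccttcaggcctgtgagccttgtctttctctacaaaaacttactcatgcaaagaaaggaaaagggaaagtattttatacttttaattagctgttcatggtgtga

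Cdh11 (ENSMUSG00000031673, chr8:102632095-102785642, minus strand), a cadherin of bone and mesenchymal cells, had 8 tested regions, with 1 lower and 1 higher at DIFF in WT and 1 lower in p27KO. The intronic region chr8:102738208-102739631 rose in WT, from 79.4, 85.2 and 91.4 at PRO to 98.9, 99.1 and 96.0 at DIFF (change 1.13 ± 0.25, adjusted p = 0.00849). In p27KO it stood at 90.2 and 85.8 at PRO and 96.5 and 93.7 at DIFF (change 0.61 ± 0.30, adjusted p = 0.232). Cdh8 (ENSMUSG00000036510, chr8:99024471-99416471, minus strand), known for its part in neuronal circuits, had 5 tested regions and 1 call. Its intronic region chr8:99250343-99251105, 165.7 kb from the 5′ end, stood at 92.4, 87.3 and 71.3 in WT PRO and at 79.6 and 86.2 in p27KO PRO, and had no peak at DIFF. The score fell by 2.30 ± 0.26 in WT (adjusted p = 0.000227) and by 2.16 ± 0.32 in p27KO (adjusted p = 0.0018). This region had a peak in exactly 5 libraries, so it entered the test through the PRO libraries.

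Cdh20 (ENSMUSG00000050840, chr1:104768529-104995481, plus strand) had 20 tested regions, all with peaks in both conditions. The intergenic region chr1:104746661-104747606, 21.6 kb upstream, was among the strongest peaks of the PRO lists, at percentiles 99.7, 98.5 and 99.4 in WT and 99.5 and 99.5 in p27KO. At DIFF it kept a peak in every library but stood at 81.3, 59.9 and 80.8 in WT and at 83.1 and 78.6 in p27KO, with no overlap between conditions. The score fell by 1.72 ± 0.21 in WT (adjusted p = 0.000297) and by 1.65 ± 0.25 in p27KO (adjusted p = 0.00207). Inside the gene the opposite was seen 3.6 kb from the 5′ end, at chr1:104771647-104772372. This intronic region stood at 25.9, 27.9 and 28.1 in WT PRO, at 65.4, 64.7 and 75.6 in WT DIFF, at 50.6 and 38.2 in p27KO PRO and at 77.5 and 68.5 in p27KO DIFF. Its score rose by 1.23 ± 0.17 in WT (adjusted p = 0.000625) and 1.04 ± 0.21 in p27KO (adjusted p = 0.00819; without p27KO PRO 2 or p27KO DIFF 1, adjusted p = 0.0744 to 0.0779). A further intronic region at 23.3 kb stood at 8.20, 4.86 and 10.0 in WT PRO and at 64.7, 42.8 and 57.5 in WT DIFF (change 1.33 ± 0.22, adjusted p = 0.00167). In p27KO it had started higher, at 42.5 and 24.2, and reached 57.5 and 38.0 at DIFF, so that the groups overlapped (adjusted p = 0.131); the difference between genotypes did not pass the test (unadjusted p = 0.0861).

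The sequences at the summits of the Cdh8 region (chr8:99250698-99250897) and the upstream Cdh20 region (chr1:104746848-104747047) both carried an AP-1 motif, TGANTCA, and are printed from the + strand of GRCm38 for this reason. AP-1 motifs are read by Fos and Jun family factors. Capitals mark every match to a searched motif, which in the Cdh8 sequence also joins TGCCAA and the SOX motif AACAAT in overlap, and in the Cdh20 sequence includes TGCCAA and CAGCTG.
Cdh8 intron, lower at DIFF: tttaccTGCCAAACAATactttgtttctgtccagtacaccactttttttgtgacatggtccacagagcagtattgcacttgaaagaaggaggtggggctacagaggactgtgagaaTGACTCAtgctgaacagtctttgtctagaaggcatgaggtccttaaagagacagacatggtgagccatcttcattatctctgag
Cdh20 upstream, lower at DIFF: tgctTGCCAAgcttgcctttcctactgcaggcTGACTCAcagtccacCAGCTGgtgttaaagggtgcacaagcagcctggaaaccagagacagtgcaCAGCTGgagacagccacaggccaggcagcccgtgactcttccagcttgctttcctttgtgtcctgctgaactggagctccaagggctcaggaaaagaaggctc

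Within 200 bp around the summit, on either strand, TGANTCA was present in 8 of the 22 cadherin regions lower in WT (36.36%) and in 0 of the 19 higher ones; over all cadherin regions it was in 17 of 150 (11.33%). The share was 24.64% of all regions of the series that were lower, 4.365% of all that were higher, and 8.344% of the 70509 tested regions with a sequence here. The E-boxes CAGCTG or CAGATG were in 13 of 22 lower (59.09%) and 6 of 19 higher (31.58%) cadherin regions, against 52.67% and 27.4% in the whole series and 34.47% of all tested. TTGGCA was in 7 of 22 and 6 of 19 (series: 19.57%, 32.83% and, of all tested, 18.46%), and GGAATG in 2 of 22 and 5 of 19 (15.66%, 23.68% and 13.96%). AACAAT was in 3 of 22 (13.64%) and 3 of 19 (15.79%), against 10.01% and 8.729% in the series and 7.783% of all tested. The RFX motif GTTGCC was in 1 of 22 (4.545%) and 2 of 19 (10.53%), against 14.08%, 11.04% and 11.54%. A match describes the letters in the window and does not show binding. The shares in lower and higher cadherin regions ran in the same order as those of the series for AP-1, E-box and TEAD motifs, and in the opposite order for the SOX and RFX motifs, which rest on 1 to 3 regions each. For the NFI motif the cadherin shares were 31.82% and 31.58%.

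Cdh13 (ENSMUSG00000031841, chr8:118283733-119324921, plus strand), the lipid-anchored member and the longest gene here at 1041 kb, had 31 tested regions and the most losses, with Hsbp1 also in its window. In WT 9 were lower (29.03%, against 10.1% of all tested regions) and 3 were higher (9.677%, against 9.15%). In p27KO 6 were lower (19.35%, against 6.48%) and 3 were higher (9.677%, against 5.83%). Among the 28 regions with peaks in both conditions, 7 were lower and 2 were higher in WT, and 4 were lower and 2 were higher in p27KO. Of all 67089 such regions in the series, 5447 were lower and 5512 higher in WT, and 3429 were lower and 3173 higher in p27KO. All 13 regions called in either genotype were intronic, between 91.2 and 912.9 kb from the 5′ end. The region chr8:118535379-118535971, at 251.8 kb, stood at 74.7, 69.3 and 85.8 in WT PRO and had a peak in WT DIFF only in replicate 3, at 20.5. In p27KO it went from 78.6 and 76.5 at PRO to no peak and 35.5 at DIFF. The score fell by 1.75 ± 0.24 in WT (adjusted p = 0.000664) and by 1.40 ± 0.30 in p27KO (adjusted p = 0.0113; without p27KO PRO 1, p27KO PRO 2 or p27KO DIFF 1, adjusted p = 0.0554 to 0.109). Closer to the 5′ end, chr8:118439923-118440249 at 156.3 kb had a peak at PRO in 1 WT library, at 12.9, and at DIFF in all 5, at 53.0, 5.50 and 58.4 in WT and 50.3 and 63.6 in p27KO. WT groups overlapped and p27KO groups did not. The score rose by 1.34 ± 0.24 in WT (limma, adjusted p = 0.00273) and 2.00 ± 0.29 in p27KO (adjusted p = 0.00163). This region reached the minimum of 5 libraries through the DIFF libraries, so its presence there is a description. In p27KO, with no peak at PRO, only a rise was possible. The neighbouring region at 169.0 kb had no peak at PRO, stood at 16.6, 21.8 and 20.5 in WT DIFF and at 30.0 and 70.4 in p27KO DIFF, and rose by 1.06 ± 0.26 (adjusted p = 0.0141) and 1.88 ± 0.31 (adjusted p = 0.00316); without any 1 of the WT PRO libraries its WT call was lost (adjusted p = 0.0745 to 0.0906). It too was kept through the DIFF libraries alone, so its presence there is a description. A region at 91.2 kb was the only cadherin region called in p27KO and not in WT (changes 1.28 and 0.60, adjusted p = 0.00687 and 0.0599).

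**Figure D4:**
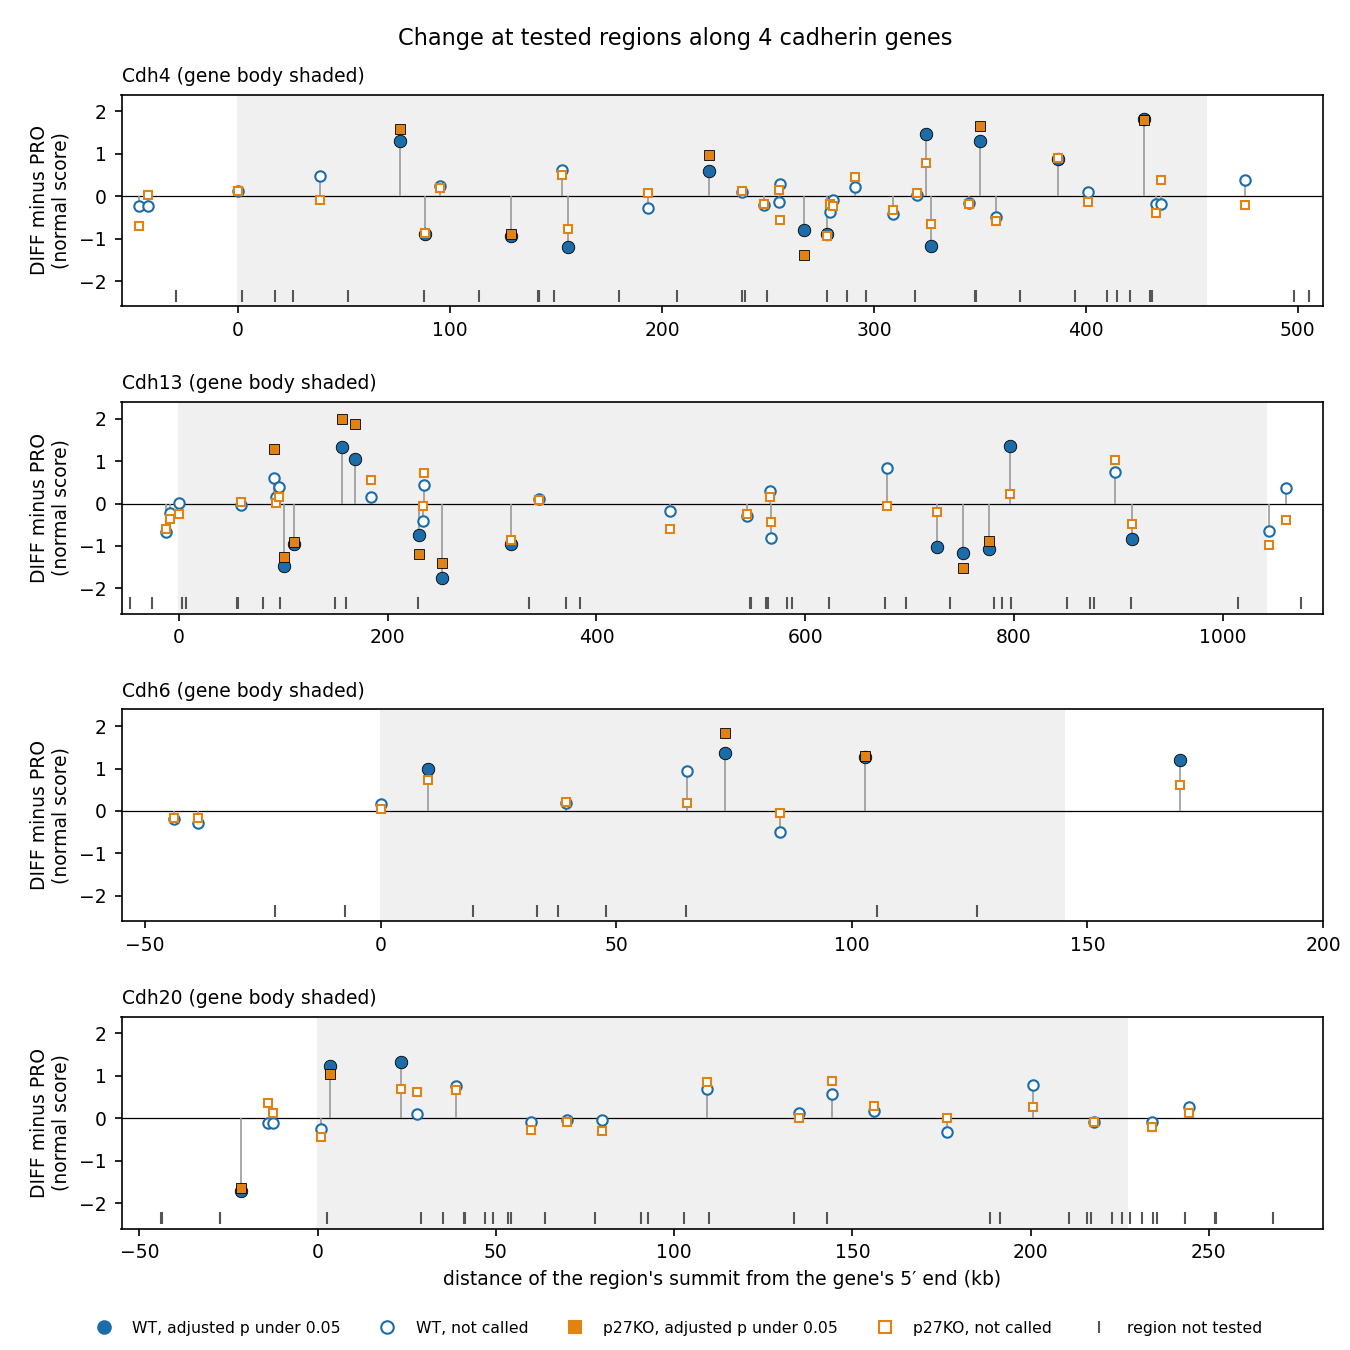
Change from PRO to DIFF in normal scores (vertical axis) against the distance of a region's summit from the 5′ end of the gene in kb (horizontal axis) for Cdh4, Cdh13, Cdh6 and Cdh20; blue circles are WT, orange squares are p27KO, filled where called, and ticks at the bottom mark regions that were not tested. The points of the promoters, close to 0 kb, are all unfilled, while the Cdh20 region at 3.6 kb, next to its promoter, is filled. In Cdh6 every filled point lies above 0.

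At the promoters, taken as the tested region nearest to a start site within 3 kb, no cadherin gene was called. Of the 10 genes, 8 had such a region, with a peak in all 10 libraries. In WT 1.14% of 15319 promoters were called, and in p27KO 0.561%. None of the 8 had an unadjusted p under 0.05 in either genotype; the lowest were 0.0684 for Cdh11 in WT and 0.0677 for Cdh8 in p27KO. By the median percentile over the 10 libraries, the Cdh6 promoter ranked highest at 91.8 (range 86.8 to 95.1), followed by Cdh11 at 72.5 (62.1 to 76.6), Cdh4 at 71.1 (65.0 to 75.9) and Cdh2 at 62.0 (51.7 to 66.2). Lower stood Cdh13 at 54.3 (26.1 to 66.1), Cdh20 at 50.5 (36.6 to 69.6), Cdh8 at 43.9 (14.9 to 53.8) and Cdh10 at 31.7 (1.07 to 42.5). Among these regions the range of Cdh6 overlapped none of the others, and each of the other genes overlapped its neighbour in this order. The place of Cdh10 depended on the choice of region. The one taken lay 1.5 kb inside the gene, 50 bp from an annotated start site, while the region at the 5′ end of Cdh10, 0.2 kb upstream, had a peak in all 10 libraries at percentiles of 81.5 to 92.5. This overlaps the Cdh6 range.

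The Cdh20 promoter and the Cdh10 region 1.5 kb inside the gene stood at lower percentiles at DIFF than at PRO in both genotypes, with no overlap, but did not pass the test. Cdh20 stood at 57.3, 53.7 and 62.2 in WT PRO and 47.4, 39.4 and 36.6 in WT DIFF, and at 66.3 and 69.6 in p27KO PRO and 44.8 and 37.0 in p27KO DIFF. The scores changed by -0.25 ± 0.22 (adjusted p = 0.598) and -0.45 ± 0.28 (adjusted p = 0.567). Cdh10 stood at 42.5, 41.0 and 40.9 in WT PRO and 1.07, 29.3 and 22.8 in WT DIFF (change -0.25 ± 0.21, adjusted p = 0.573). In p27KO it stood at 38.5 and 34.1 at PRO and 9.62 and 23.4 at DIFF. Its score there hardly changed (-0.015 ± 0.259, limma, adjusted p = 0.986). The other promoter regions of Cdh10 went the other way. The one at the 5′ end stood at 81.5, 82.8 and 88.2 in WT PRO and 89.3, 92.5 and 86.4 in WT DIFF (change 0.33 ± 0.20, adjusted p = 0.291). In p27KO it stood at 89.9 and 92.3 at PRO and 92.5 and 89.6 at DIFF (change 0.12). The one at 2.6 kb changed by 0.19 in WT and 0.48 in p27KO. None of these passed the test. A percentile counts only the peaks in the same list, while a score counts all tested regions with those lacking a peak at the bottom. The 2 measures can therefore differ, and why they did here was not tested. Cdh1 and Cdh5 had no tested promoter: a peak lay within 3 kb of a Cdh1 start site in 2 libraries of WT PRO, 1 of WT DIFF, 1 of p27KO PRO and in no p27KO DIFF library, and of a Cdh5 start site in 0, 1, 1 and 0.

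**Figure D5:**
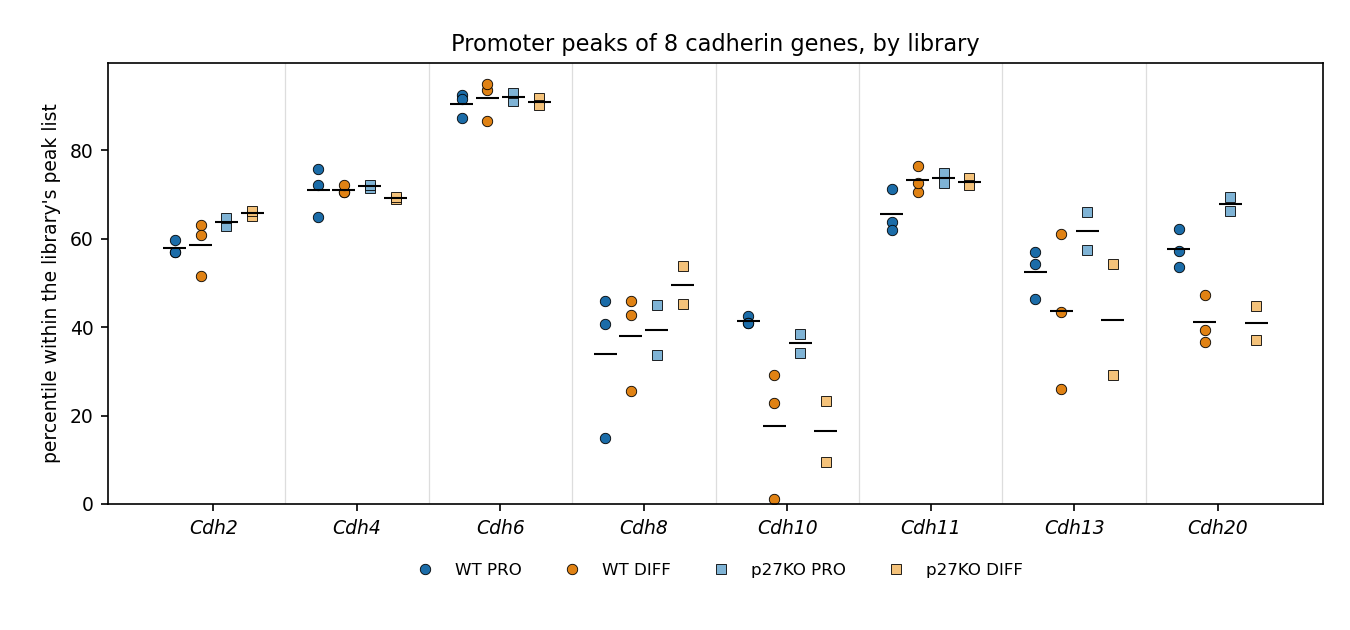
Percentile of the promoter peak within its library's list (vertical axis, 0 to 100) for the 8 cadherin genes with a tested promoter (horizontal axis); each point is a library, circles are WT, squares are p27KO, and bars are group means. Of the regions shown, Cdh6 lies highest in every library, and Cdh20 and the Cdh10 region 1.5 kb inside the gene lie lower at DIFF than at PRO.

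Averaged over each locus, as the mean score of the tested regions in the gene and its flanks, 1 gene passed the test in WT and none in p27KO (limma), and 3 had an unadjusted p under 0.05 in WT and 2 in p27KO. Of all 19806 loci, 12.9% were called in WT and 5.02% in p27KO. The locus was that of Cdh6, with mean scores of -0.72, -0.48 and -0.45 in WT PRO and -0.07, 0.05 and -0.10 in WT DIFF, and a change of 0.51 ± 0.09 (adjusted p = 0.0104). In p27KO its scores were -0.57 and -0.50 at PRO and -0.01 and -0.15 at DIFF (change 0.45 ± 0.11, adjusted p = 0.0511). This rested on regions absent from some lists: over Cdh6 regions with a peak in all 10 libraries, 3 in number, the change was -0.36 in WT (adjusted p = 0.191) and -0.13 in p27KO, while the Cdh1 locus was called in WT under that choice (change 0.59, adjusted p = 0.00739). The call in WT was also lost without WT PRO 1, without any 1 of the 3 WT DIFF libraries, and without either p27KO DIFF library (changes 0.32 to 0.41, adjusted p = 0.0555 to 0.138). The other loci changed by -0.37 (Cdh8, adjusted p = 0.126) to 0.16 (Cdh20, adjusted p = 0.326) in WT and by -0.41 (Cdh8, adjusted p = 0.2) to 0.16 (Cdh1, adjusted p = 0.383) in p27KO, and for the Cdh5 locus the change in WT was -0.27 ± 0.09 (adjusted p = 0.0778).

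The genotypes were then compared within each condition. No cadherin region differed between p27KO and WT at PRO, where 0.034% of all regions were called, or at DIFF, where 0.0156% were (limma). An unadjusted p under 0.05 was found for 7 of the 150 at PRO and 11 at DIFF, against 5.53% and 4.907% of all regions. The cadherin share was thus below the background at PRO and above it at DIFF. The lowest unadjusted p at PRO was 0.0035, for an intergenic region 247.7 kb from the 5′ end of Cdh2 (adjusted p = 0.578). The intronic Cdh2 region at 133.9 kb had one of 0.00973, with percentiles of 93.3 to 97.8 in WT and 99.2 to 99.4 in p27KO and an adjusted p of 0.729.

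Counted by presence alone, a region was closed when every PRO library of a genotype had a peak and no DIFF library did, and opened in the reverse case. In WT 13 of 213 cadherin regions were closed (6.103%, against 4.32% of 99231 regions) and 8 were opened (3.756%, against 1.86%). In p27KO 26 were closed (12.21%, against 10.9%) and 11 were opened (5.164%, against 3.32%), and 9 were closed and 6 opened in both. WT counts rest on 3 libraries a group and p27KO counts on 2, so the genotypes are not compared. The counts also turned on single libraries: 30 of 210 were closed in WT without WT DIFF 3 (14.29%, against 10.39% of all) and 14 of 209 opened in WT without WT DIFF 2 (6.699%, against 3.882%). Likewise 43 of 203 were closed in p27KO without p27KO DIFF 2 (21.18%, against 17.93%) and 20 of 210 opened in p27KO without p27KO DIFF 1 (9.524%, against 6.488%). Within the strongest 57000 peaks of each list, 9 of 163 were closed in p27KO, and this share turned from above the background to below it (5.521%, against 6.968%). Under that choice 13 were closed in WT (7.975%, against 4.66%), 10 opened in WT (6.135%, against 3.725%) and 14 opened in p27KO (8.589%, against 6.168%).

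Related genes were counted for reference. Around 12 other cadherin genes, 2 of 78 tested regions were lower and 5 were higher in WT (8.974% called, against 19.21% of all regions). Around 10 catenin and junction genes, 12 of 157 were lower and 16 were higher (17.83%). Around 5 genes of transcriptional repressors of cadherins, 5 of 36 were lower and 3 were higher (22.22%). In p27KO these were 3 and 3 (7.692%, against 12.31% of all), 12 and 11 (14.65%), and 5 and 4 (25%). No promoter of these genes was called. At the level of loci, Cdh3, which neighbours Cdh1 and shares regions with its window, rose in WT (change 0.87 ± 0.08, adjusted p = 0.000558) and p27KO (0.86 ± 0.10, adjusted p = 0.00277), over 3 regions. Ctnnd2, which encodes delta-catenin, a partner of cadherin tails in neurons, rose by 0.39 ± 0.07 (adjusted p = 0.00916) and 0.46 ± 0.08 (adjusted p = 0.0168), with 7 of 29 regions higher and 0 lower in each genotype. Ctnna1, which encodes alpha-E-catenin, fell in WT by 0.35 ± 0.10 over 5 regions (limma, adjusted p = 0.0438). In p27KO its change was -0.40 (adjusted p = 0.0829). Snai2, a repressor of Cdh1, rose in WT by 0.49 ± 0.14 over 2 regions (adjusted p = 0.0468). In p27KO its change was 0.34 (adjusted p = 0.247). In WT, 1 of the 12 other cadherin loci was higher, 1 of the 10 catenin and junction loci was lower and 1 higher, and 1 of the 5 repressor loci was higher. The share of all loci called was 12.9% in WT and 5.02% in p27KO. These loci were not recomputed with a library left out.

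For each cadherin locus the protein-coding locus with the most similar profile over the 10 libraries was found, by the root mean square difference of centred locus scores. For Cdh6 this was Mcm10 (difference 0.047), whose 4 tested regions changed on average by 0.48 in WT and 0.44 in p27KO. For Cdh4 it was Ralgapa1 (0.024), for Cdh2 Tenm1 (0.038), for Cdh13 Col27a1 (0.036), for Cdh20 Trappc5 (0.035), for Cdh11 Rab43 (0.036), for Cdh8 Lsm14a (0.077), for Cdh1 Adgra3 (0.03), for Cdh5 Btn1a1 (0.05) and for Cdh10 6820408C15Rik (0.047). These are the closest of all such loci and describe the profiles only.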

How the data were processed

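Adapters were clipped by the authors with Cutadapt, reads were trimmed with Trimmomatic and mapped to GRCm38 with Bowtie2, duplicates were marked with Picard, and MACS2 called narrow peaks in each library (no model, FDR 0.05); the versions, read shift and extension size are not given in the sources used here. The lists deposited by the authors give peak positions, a fold enrichment (the ratio of the summit pileup to the local background), −log10 p-values and −log10 q-values, of which the lowest was 1.30, and a display score that was not used. Fold enrichments are comparable within a list only, so ranks were used. Replicates were not pooled. Read numbers are not in these lists, so no counting interval can be given, and depth limits which peaks were called.

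Peaks of the 10 lists were merged and assigned with GENCODE M21 (no peak lay past the end of any of 21 chromosomes of the reference). Normal scores of 70627 regions were fitted with limma 3.58.1 in R 4.3.3 as group means with 1 shared spread, adjusted by Benjamini-Hochberg over all regions, 15319 promoters or 19806 loci at 0.05. The fit was tested on simulated data. Errors of changes are standard errors. The sequences are RefSeq's GRCm38. For each gene, up to 3 called regions with the largest mean change were described in full; the promoters and loci of all 10 were given. One called region is not reported here on its own. Regions at 34.0, 91.2, 96.4 and 247.7 kb, and the other Cdh10 promoter regions, were named after their values were seen. The members, lists and motifs were chosen with earlier results of these data known. Groups came from the sample titles. Alternatives changed the ranking, region and peak filters, merging, windows, replicate block and libraries.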

Additional observations from a re-analysis of the deposited data

How the results depend on the processing

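Of 118 recomputed counts, not taking those with a library left out, 111 stayed within 1.5 times the reported one. Many of these were counts of 0 that stayed at 0, for promoters, the difference between genotypes and p27KO against WT. The WT locus count also stayed at 1 where the called locus was not Cdh6. It was Cdh1 with all 10 libraries required and Cdh13 within the top 57000 peaks. The 111 thus does not measure how stable the other counts were. With regions required in all 10 libraries, 12 (6 lower, 6 higher) were called in WT and 7 (5 lower, 2 higher) in p27KO, since 74 regions remained. The Cdh6 locus was called in p27KO, giving 1 locus, with ranking by −log10 p-value, with merging around summits and with 100 kb flanks, and its WT call was lost within the top 57000 peaks (0.28, adjusted p = 0.115). Closed regions in p27KO numbered 9 within the top 57000 peaks and 16 in gene bodies alone. With 1 library left out and the minimum kept at 5 of 9, which drops regions seen in exactly 5 when the omitted library is one of them, calls ranged from 23 to 34 in WT and from 9 to 21 in p27KO, called loci in WT from 0 to 2, closed regions from 13 to 30 in WT and 26 to 43 in p27KO, and opened regions from 8 to 14 and 11 to 20. Each of the 4 lowest counts in p27KO came without a p27KO library, and leaving 1 of a pair makes the lone library vary like the other groups by assumption. Promoter calls, the difference between genotypes and p27KO against WT stayed at 0 cadherin calls in every alternative run.

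Same-numbered libraries correlated by 0.057, 0.065 and 0.033 in WT, and differently numbered ones by -0.051 to -0.005. In p27KO the values were -0.141 and 0.141. These weak correlations do not settle whether the numbers pair the libraries. The main fit did not pair them, and pairing was run as an alternative. The replicate block gave 37 calls in WT and 24 in p27KO, and 1 and 0 loci. The crossed pairing in p27KO, added after seeing the data, gave 41 and 21.

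Changes that turned sign were of promoters and loci that were not called, apart from the Cdh6 locus in WT. Ranking by −log10 p-value gave promoter changes of -0.0121 (Cdh2), -0.31 (Cdh4), -0.26 (Cdh6) and -0.13 (Cdh13) in WT and -0.16 (Cdh4) and -0.10 (Cdh6) in p27KO, and -0.0126 for the Cdh4 locus in p27KO. With a minimum of 2 libraries, the Cdh13 promoter stood at -0.00269 and the Cdh2 and Cdh4 loci at 0.044 and -0.025 in WT, and the Cdh1, Cdh2 and Cdh4 loci at -0.026, 0.046 and -0.031 in p27KO. With all 10, the Cdh13 promoter stood at -0.16 and the Cdh4, Cdh6 and Cdh8 loci at -0.041, -0.36 and 0.30 in WT, and the Cdh4, Cdh6, Cdh8, Cdh11 and Cdh20 loci at -0.059, -0.13, 0.31, 0.12 and -0.00392 in p27KO. Merging around summits gave -0.39 for the Cdh13 promoter in WT and -0.00275 for the Cdh4 locus in p27KO. Gene bodies alone gave -0.17 for the Cdh1 locus in WT and -0.0932, 0.14 and 0.33 for the Cdh1, Cdh5 and Cdh11 loci in p27KO. The top 57000 peaks gave -0.018 and 0.062 for the Cdh4 and Cdh10 loci in WT and -0.049 for the Cdh4 locus in p27KO, and 100 kb flanks gave 0.014 for the Cdh10 locus in WT. The causes were not tested.

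With 1 library left out, promoter changes ran from -0.054 to 0.30 (Cdh2), -0.0632 to 0.49 (Cdh8), -0.11 to 0.15 (Cdh13) and -0.37 to 0.0061 (Cdh20) in WT, and from -0.18 to 0.36 (Cdh2), -0.0497 to 0.14 (Cdh6), -0.16 to 0.66 (Cdh8), -0.14 to 0.066 (Cdh10) and -0.56 to 0.12 (Cdh13) in p27KO. Locus changes ran from -0.19 to 0.031 (Cdh4), -0.40 to 0.21 (Cdh8), -0.085 to 0.093 (Cdh10) and -0.026 to 0.48 (Cdh11) in WT, and from -0.19 to 0.012 (Cdh2), -0.22 to -0.010 (Cdh4), -0.43 to 0.20 (Cdh8) and -0.36 to 0.19 (Cdh11) in p27KO. The Cdh11 locus was called in WT without WT PRO 3, p27KO PRO 1 or p27KO PRO 2 (adjusted p = 0.0378 to 0.0492), and the Cdh13 locus within the top 57000 peaks (-0.28, adjusted p = 0.0469). None of the regions described in full turned sign in any alternative in which it was tested. For those with peaks in every library of 1 condition and in none of the other, the sign could not turn. With a library left out, those regions were tested only when it was not among the libraries with their peaks.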
